A study of Ovis aries with 10 samples.

Results

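A set of 30 genes of myelin and of the oligodendrocyte lineage was described in the mediobasal hypothalamus, a region at the base of the brain that includes the arcuate nucleus and the median eminence. The genes were taken from a fixed list of gene symbols and all 30 were found among the 33775 genes of the count table, 24 under their own symbol and 6 (MBP, MOBP, CNP, MAL, PLLP and TPPP) through their gene identifier. The tissue came from adult Ile-de-France ewes, 10 in the luteal phase, when the corpus luteum secretes progesterone, and 10 in the follicular phase, when it has regressed. RNA of 2 ewes was mixed in equal amounts for each library, giving 5 libraries per phase, and no ewe was in both phases. The sources used here name no hormone treatment. A library therefore averages 2 animals, and tests between the phases set the difference against the spread between such mixes. Library totals ran from 28571863 to 42358557 reads in the luteal and from 20644992 to 43193449 reads in the follicular phase. Depth was thus partly tied to phase. Follicular 1, 2 and 3 had fewer reads than any luteal library, follicular 4 had 28669577, and follicular 5 had the most of all.

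Oligodendrocytes wrap axons in myelin, a compacted membrane rich in cholesterol and glycolipid. They arise throughout life from precursors that carry the receptor PDGFRA and the proteoglycan CSPG4 (NG2). Precursors that commit pass through a short-lived stage marked by GPR17, BCAS1 and ENPP6, and the transcription factor MYRF then switches on the genes of the sheath. Progesterone and its metabolites are known to act on oligodendrocytes in rodents. In the median eminence of rodents new oligodendrocytes are formed in adulthood. Here 19 members were treated as mature genes, 7 as precursor genes (PDGFRA, CSPG4, GPR17, OLIG1, OLIG2, NEU4 and MYT1), and 4 (SOX10, BCAS1, ENPP6 and C1QL1) as genes of newly differentiating cells or of the lineage at large. Several are also used by other cells. CSPG4 is found on pericytes, PDGFRA on fibroblasts, TF in choroid plexus, and MYT1, C1QL1, QDPR and TPPP in some neurons.

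All 30 members passed the filter on low counts. No member passed edgeR's quasi-likelihood test between the phases, adjusted over 18276 genes (adjusted p from 0.426 to 0.972), where 0% of all genes tested were called. Of the 30 members 20 averaged lower and 10 higher in luteal libraries, and the median log2 fold change, luteal over follicular, was -0.13 against 0.01 over all genes, of which 48.5% were lower. At an unadjusted p under 0.05 stood 3 members (10.0%), against 11.4% of all genes. They were TMEM98, higher in luteal libraries like 4.27% of all genes, and CSPG4 and PLLP, lower like 7.12%. For no member did the values of the phases stay apart without overlap, as they did for 1.12% of all genes. The 19 mature genes had a median of -0.18, with 15 lower, and the 7 precursor genes a median of 0.23, with 3 lower. DESeq2 and limma-voom called 0 members, against 0.192% and 0% of all genes.

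**Figure D1:**
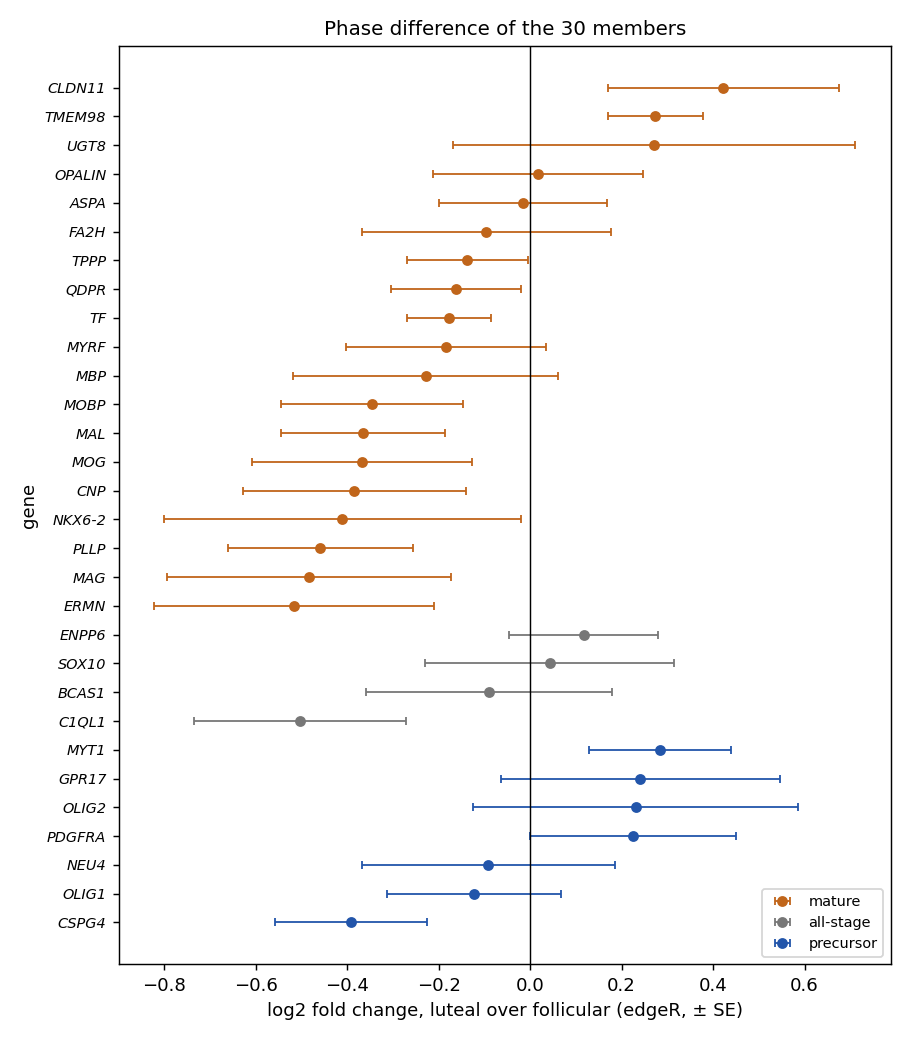
Log2 fold change of luteal over follicular libraries (x axis, edgeR, ± SE, 5 libraries per phase) for each of the 30 members (y axis), with mature genes in orange, newly differentiating or all-stage genes in grey and precursor genes in blue. The values run from -0.52 for ERMN to 0.42 for CLDN11, and none passed the test.

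RNA levels of the sheath proteins spread widely among the libraries of one phase. Values are CPM, a gene's reads scaled to the library's TMM-adjusted total, and compare libraries for 1 gene, not genes with each other. MBP, the basic protein that holds the inner faces of the membrane together, had 668, 557, 354, 357 and 214 CPM in luteal libraries 1 to 5, against 455, 730.1, 364, 584 and 385 CPM in follicular libraries 1 to 5. Luteal 1 and 2 lay among the high follicular libraries, and luteal 5 lay below all others. Its mean was 429.9 ± 181 CPM in luteal and 503 ± 153 CPM in follicular libraries (SD, n = 5 per phase), with a log2 fold change of -0.23 (SE 0.29, edgeR adjusted p = 0.675).

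MOG, a surface protein of the outermost layer of myelin, had 72.8, 61.8, 40.2, 40.9 and 28.9 CPM in luteal libraries 1 to 5, against 77.9, 69.2, 54.0, 70.4 and 44.1 CPM in follicular libraries. MAG, which binds the sheath to the axon from its innermost layer, had 64.1, 50.4, 29.8, 35.5 and 19.1 CPM in luteal libraries, against 68.9, 65.1, 50.8, 64.4 and 29.3 CPM in follicular libraries. For both genes luteal 5 was the lowest of all libraries and follicular 5 the lowest of its phase, and the phases overlapped. The log2 fold changes were -0.37 (SE 0.24) for MOG and -0.48 (SE 0.31) for MAG, with edgeR adjusted p of 0.463 and 0.458.

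PLLP (plasmolipin) and MAL are small membrane proteins of myelin's lipid domains. PLLP had 46.1, 35.6, 27.7, 31.4 and 21.5 CPM in luteal libraries 1 to 5, against 55.1, 47.9, 44.2, 45.4 and 30.7 CPM in follicular libraries. MAL had 27.6, 25.1, 16.6, 22.8 and 15.4 CPM in luteal libraries, against 30.2, 25.3, 30.5, 31.2 and 21.5 CPM in follicular libraries. Among mature genes these had the smallest p of those lower in luteal libraries (unadjusted p = 0.0428 and 0.0645, both with edgeR adjusted p = 0.426), and in both luteal 3 and 5 lay below all follicular libraries while luteal 1 exceeded at least 2 of them. Their log2 fold changes were -0.46 (SE 0.20) and -0.37 (SE 0.18).

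CLDN11, the claudin that seals the layers of the sheath with tight junctions, went the other way. It had 29.1, 33.7, 22.9, 27.0 and 22.9 CPM in luteal libraries 1 to 5, against 15.8, 20.8, 10.6, 20.0 and 33.7 CPM in follicular libraries. Each luteal library exceeded follicular 1 to 4, and follicular 5 lay just below luteal 2, the highest of all libraries. The log2 fold change was 0.42 (SE 0.25, edgeR adjusted p = 0.444). Across the 10 libraries its Pearson r was 0.13 with MBP and 0.64 with PDGFRA (adjusted p = 0.749 and 0.0769 by permutation). Which cells its reads came from was not tested.

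Of the other genes of sheath proteins, MOBP, for a basic protein of compact myelin, had a log2 fold change of -0.35 (SE 0.20). It was -0.38 (SE 0.24) for CNP, the enzyme of the uncompacted channels, and -0.52 (SE 0.31) for ERMN, a cytoskeletal protein of late oligodendrocytes. OPALIN, a membrane glycoprotein of mature cells, averaged 35.1 ± 10.6 CPM in luteal and 34.6 ± 9.42 CPM in follicular libraries (SD, n = 5 per phase). The median of the 10 sheath genes was -0.37, with 8 lower and 2 higher in luteal libraries.

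**Figure D2:**
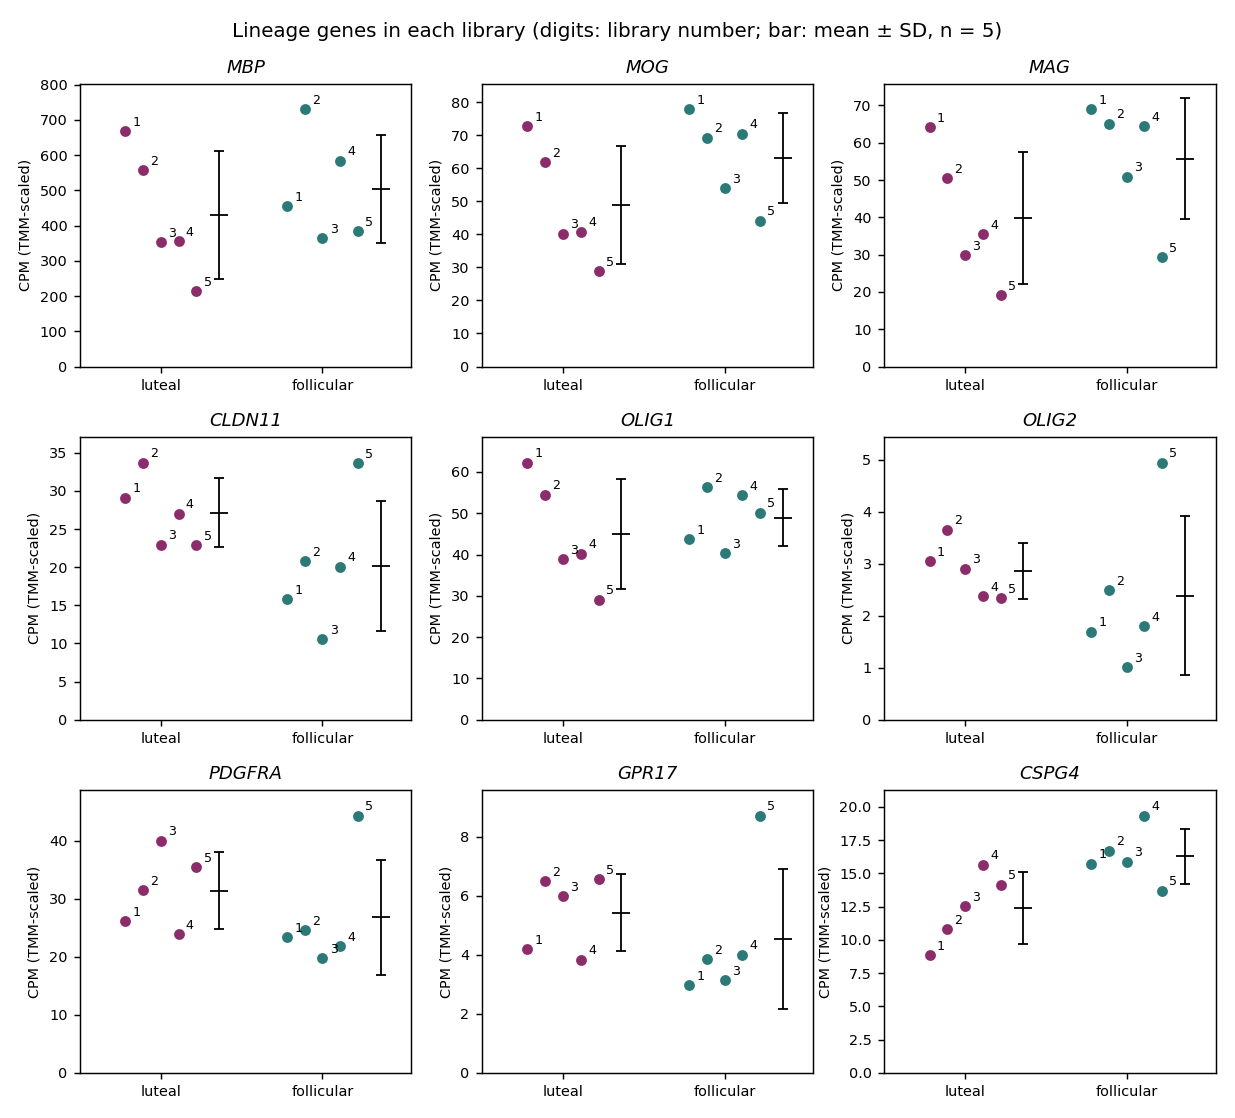
Level of 9 members (y axes, CPM on TMM-scaled totals) in the 5 luteal and 5 follicular libraries (points, with the library number), with mean ± SD beside each phase. MBP, MOG, MAG and OLIG1 are lowest in luteal 5, and PDGFRA, GPR17 and OLIG2 are highest in follicular 5.

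Of the 6 enzymes and carriers of mature oligodendrocytes 5 averaged lower in luteal libraries, with a median log2 fold change of -0.12. TF, the iron carrier transferrin, had the narrowest range of all members, with a 1.38-fold gap between its highest and lowest library. It averaged 115 ± 7.17 CPM in luteal and 129 ± 12.5 CPM in follicular libraries (log2 fold change -0.18, SE 0.09, edgeR adjusted p = 0.430). FA2H, which hydroxylates the fatty acids of myelin galactolipids, averaged 6.87 ± 2.47 and 7.34 ± 2.04 CPM in luteal and follicular libraries. ASPA, which splits N-acetylaspartate to supply acetate for lipid synthesis, averaged 6.70 ± 1.21 and 6.77 ± 1.30 CPM in luteal and follicular libraries. QDPR, which regenerates tetrahydrobiopterin, and TPPP, which stabilises microtubules, had log2 fold changes of -0.16 (SE 0.14) and -0.14 (SE 0.13).

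UGT8, which makes galactosylceramide, the main glycolipid of myelin, differed from these genes in its pattern. It had 1.68, 2.82, 3.90, 1.34 and 3.11 CPM in luteal libraries 1 to 5, against 1.33, 2.46, 1.11, 0.974 and 4.51 CPM in follicular libraries. The highest library was follicular 5 and the lowest follicular 4, so the whole range lay inside 1 phase (log2 fold change 0.27, SE 0.44, edgeR adjusted p = 0.750). The gene was thinly covered, with 21 to 207 reads per library.

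Among regulators of the myelin programme, TMEM98, a membrane protein that binds MYRF and restrains its cleavage, had the smallest p of all members. It had 49.6, 48.6, 47.5, 54.9 and 43.6 CPM in luteal libraries 1 to 5, against 34.7, 36.9, 42.0, 45.7 and 42.6 CPM in follicular libraries. Luteal 5 lay within the follicular range and the other luteal libraries above it. The log2 fold change was 0.27 (SE 0.10, unadjusted p = 0.0212, edgeR adjusted p = 0.426). MYRF itself averaged 14.9 ± 4.77 CPM in luteal and 17.0 ± 3.24 CPM in follicular libraries (log2 fold change -0.18, SE 0.22). NKX6-2, a homeobox factor of myelinating cells, averaged 3.69 ± 1.98 and 4.93 ± 1.86 CPM in luteal and follicular libraries.

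Of the newly differentiating and all-stage genes, SOX10, the factor that the whole lineage needs, averaged 24.8 ± 10.3 CPM in luteal and 24.0 ± 5.56 CPM in follicular libraries (SD, n = 5 per phase). BCAS1, which marks cells that have begun to myelinate, averaged 21.8 ± 9.30 and 23.2 ± 6.06 CPM in luteal and follicular libraries. ENPP6, a choline phosphodiesterase of newly formed cells, averaged 6.92 ± 0.602 and 6.36 ± 1.29 CPM in luteal and follicular libraries. C1QL1, a secreted protein found in precursors and in some neurons, had 23.3, 17.2, 14.0, 18.1 and 10.5 CPM in luteal libraries 1 to 5, against 26.7, 21.2, 27.1, 28.8 and 14.3 CPM in follicular libraries. Only luteal 1 exceeded follicular 2, and luteal 5 and follicular 5 were the lowest of their phases (log2 fold change -0.50, SE 0.23, edgeR adjusted p = 0.426).

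Of the 7 precursor genes 4 averaged higher and 3 lower in luteal libraries, where 48.5% of all genes were lower. Follicular 5 was the highest follicular library for 5 of the 7. PDGFRA, the receptor through which platelet-derived growth factor drives precursor division, had 26.2, 31.5, 40.0, 23.9 and 35.5 CPM in luteal libraries 1 to 5, against 23.4, 24.6, 19.7, 21.9 and 44.3 CPM in follicular libraries. GPR17, a receptor of committed precursors, had 4.20, 6.49, 5.99, 3.84 and 6.57 CPM in luteal libraries, against 2.97, 3.85, 3.13, 4.01 and 8.71 CPM in follicular libraries. In both genes follicular 5 had the highest value of all 10 libraries and the other follicular libraries lay below the luteal range or at its low end. The log2 fold changes were 0.23 (SE 0.22) and 0.24 (SE 0.30), with edgeR adjusted p of 0.597 and 0.674.

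MYT1, a zinc finger factor of precursors and neurons, had 23.8, 29.9, 32.6, 20.5 and 30.9 CPM in luteal libraries 1 to 5, against 19.8, 21.2, 23.6, 20.0 and 28.4 CPM in follicular libraries (log2 fold change 0.28, SE 0.15, edgeR adjusted p = 0.432). NEU4, a sialidase, an enzyme that removes sialic acid, averaged 7.32 ± 0.751 CPM in luteal and 7.74 ± 3.73 CPM in follicular libraries. Its highest value, 13.6 CPM, was again in follicular 5.

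CSPG4 had the lowest log2 fold change of the precursor genes, of which OLIG1 and NEU4 (-0.12 and -0.09) also averaged lower in luteal libraries. CSPG4 had 8.83, 10.8, 12.5, 15.6 and 14.2 CPM in luteal libraries 1 to 5, against 15.7, 16.7, 15.9, 19.3 and 13.7 CPM in follicular libraries. Luteal 4 and 5 lay above follicular 5, and the other luteal libraries lay below all follicular ones (log2 fold change -0.39, SE 0.17, unadjusted p = 0.0366, edgeR adjusted p = 0.426). Pericytes also carry CSPG4. The 8 markers of mural cells and fibroblasts summed to 617 to 774 CPM in luteal and 601 to 774 CPM in follicular libraries, 7 of them averaging higher in luteal, and their part in the CSPG4 values was not tested.

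OLIG1 and OLIG2 encode related factors of the lineage, OLIG2 being needed for its formation and OLIG1 for later maturation. OLIG1 had 62.3, 54.5, 38.9, 40.2 and 29.0 CPM in luteal libraries 1 to 5, against 43.7, 56.3, 40.3, 54.4 and 50.1 CPM in follicular libraries. OLIG2 had 3.05, 3.65, 2.90, 2.37 and 2.33 CPM in luteal libraries, against 1.69, 2.49, 1.01, 1.80 and 4.94 CPM in follicular libraries. OLIG1 was lowest in luteal 5, like MBP, MOG and MAG, and OLIG2 was lowest in follicular 3 and highest in follicular 5, like PDGFRA. Their log2 fold changes were -0.12 (SE 0.19) and 0.23 (SE 0.36), with edgeR adjusted p of 0.734 and 0.733. OLIG2 rested on 19 to 227 reads per library.

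**Figure D3:**
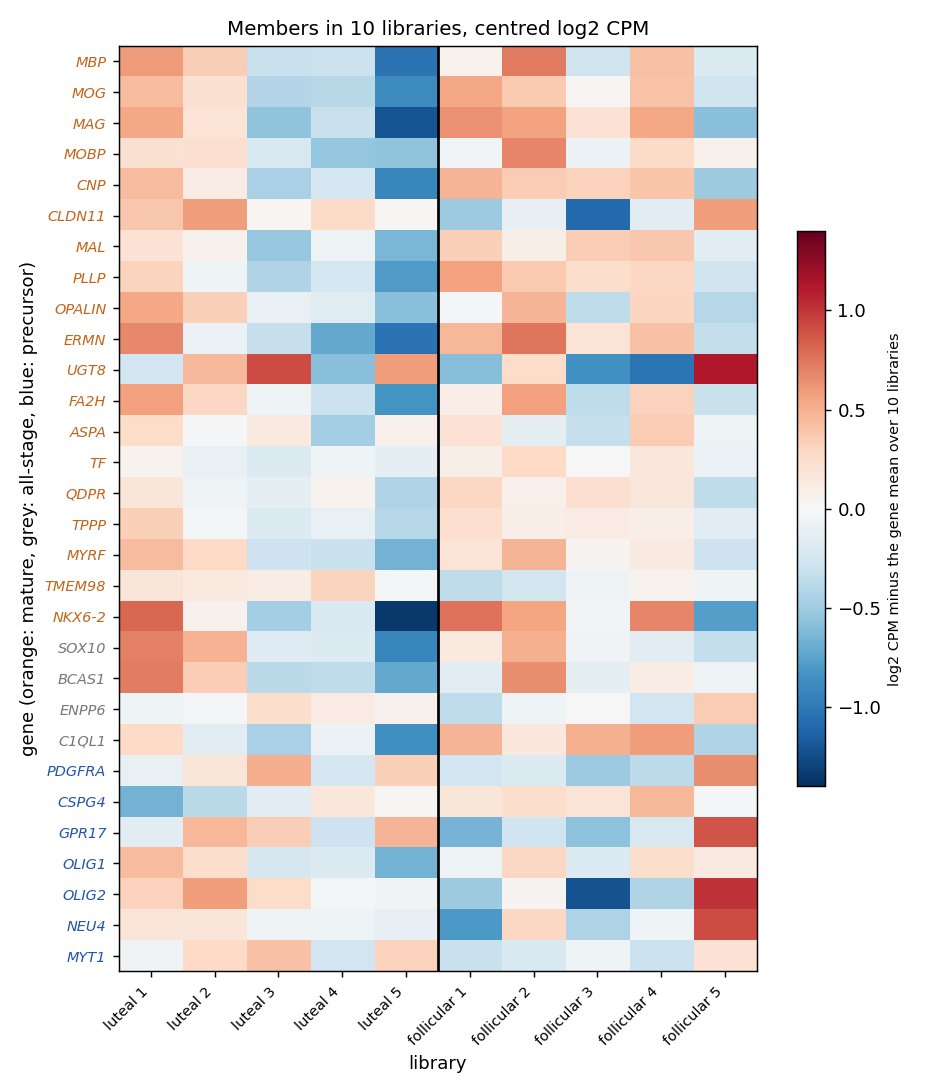
Centred log2 CPM (colour, log2 units relative to the gene's mean over 10 libraries) of the 30 members (rows) in the 5 luteal and 5 follicular libraries (columns). Most mature genes are high in luteal 1 and low in luteal 5, while PDGFRA, GPR17, OLIG2, NEU4 and UGT8 are high in follicular 5.

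Libraries of one phase stood apart in the same way for many genes. Luteal 1 was the highest luteal library for 15 of the 19 mature genes and luteal 5 the lowest for 16, and luteal 5 was the lowest of all 10 libraries for 14. In the follicular phase follicular 5 was lowest for 12 of the 19. Follicular 5 was at the same time the highest follicular library for 5 of the 7 precursor genes. The summed level of the mature genes ran from 1007 CPM in luteal 5 to 2024 CPM in luteal 1, and from 1328 CPM in follicular 5 to 2031 CPM in follicular 2. For the precursor genes it ran from 113 to 145 CPM in luteal libraries and from 109 to 164 CPM in follicular libraries. In such bulk tissue, fewer cells of a type and less RNA per cell cannot be told apart. The median SD of log2 CPM within the luteal phase was 0.44 for mature genes, and 0.31 for precursor genes, against 0.27 for all genes tested. Within the follicular phase it was 0.33 for mature and 0.46 for precursor genes, against 0.31 for all genes tested.

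Ratios of reads within a library do not depend on its scaling and here set MBP, MOG and MAG against a single precursor gene, PDGFRA. Other precursor genes were not used as the denominator. Of these, 4 correlated positively with PDGFRA across the libraries and 2, CSPG4 and OLIG1, did not. MBP reads per PDGFRA read numbered 25.5, 17.7, 8.83, 14.9 and 6.04 in luteal libraries 1 to 5, against 19.4, 29.6, 18.4, 26.7 and 8.68 in follicular libraries. MOG reads per PDGFRA read numbered 2.78, 1.96, 1.00, 1.71 and 0.815 in luteal libraries, against 3.32, 2.81, 2.73, 3.22 and 0.996 in follicular libraries. MAG reads per PDGFRA read numbered 2.45, 1.60, 0.746, 1.49 and 0.540 in luteal libraries, against 2.94, 2.64, 2.57, 2.94 and 0.662 in follicular libraries. Follicular 1 to 4 lay close together in MOG and MAG ratios, and follicular 5 fell among the low luteal libraries. The luteal minus follicular difference of the mean log2 ratio was -0.55 for MBP, -0.68 for MOG and -0.81 for MAG, and none passed (two-sided exact permutation tests, p = 0.238, 0.190 and 0.198, adjusted p = 0.238 over the 3 ratios; smallest possible p = 0.00794).

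Follicular 5 decided the tests for MOG and MAG. Without it the luteal minus follicular difference was -0.84 for MBP, -1.004 for MOG and -1.22 for MAG over PDGFRA (exact permutation tests, p = 0.103, 0.0238 and 0.0159, adjusted p = 0.103, 0.0357 and 0.0357). Since that library was the one farthest from its phase, leaving it out narrows the follicular spread and is no separate evidence. Without it edgeR still called 0 genes at an adjusted p of 0.05, and at 0.10 it called 8 of the 30 members (26.7%) against 24.9% of all genes. Of the 8, CLDN11, PDGFRA, GPR17, TMEM98 and OLIG2 averaged higher and C1QL1, PLLP and CSPG4 lower in luteal libraries. Likewise limma-voom with quality weights, which gave follicular 5 the smallest weight of all libraries (0.237), called 10 of the 30 members (33.3%) at 0.05 against 32.1% of all genes. Of these 10, 6 were higher (OLIG2, CLDN11, GPR17, UGT8, PDGFRA and MYT1), against 15.3% of all genes, and 4 lower (TF, C1QL1, PLLP and CSPG4), against 16.8%. In both analyses the share of members called was near that of all genes.

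**Figure D4:**
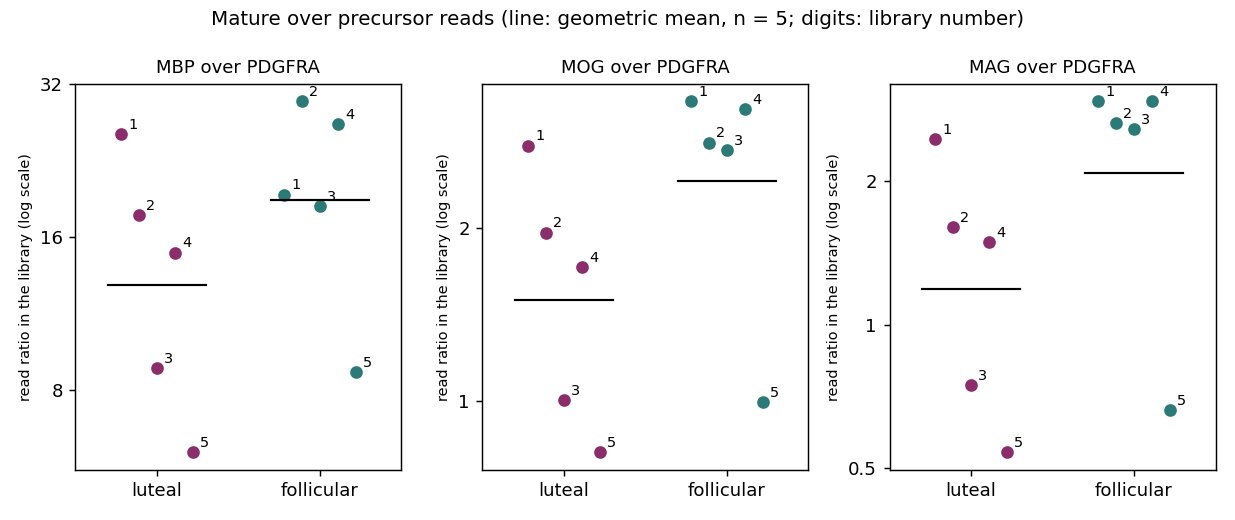
Reads of MBP, MOG and MAG per read of PDGFRA (y axes, log scale) in each luteal and follicular library (points, with the library number), with the geometric mean of each phase as a line. Follicular 5 sits at 8.68, 0.996 and 0.662, near luteal 3 and 5 and below the other follicular libraries.

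Across the 10 libraries many members varied with MBP and a smaller set with PDGFRA. Correlations of log2 CPM were computed for every member with MBP, with PDGFRA and with the first principal component of all tested genes, 87 in all, each with permutation tests and with p adjusted over the 87. Of 18 mature genes 16 correlated positively with MBP (median Pearson r 0.80), 10 of them past the threshold by both Pearson's r and Spearman's rho. An r of at least 0.7 with MBP was reached by 12 of the 18 mature genes and by 15 of 29 members (51.7%), against 2.85% of all genes tested, and one of -0.7 or below by 0 members, against 1.7% of all genes. The closest was FA2H (r = 0.97, adjusted p = 0.00087, rho = 0.88, adjusted p = 0.0112 by permutation, r = 0.95 without luteal 5 and follicular 2, the libraries farthest from the median of MBP). SOX10, BCAS1 and OLIG1 belonged to the same pattern, with OLIG1 at r = 0.95 (adjusted p = 0.00155, rho = 0.96, adjusted p = 0.00261 by permutation, r = 0.91 without these libraries). For OLIG2 the relation to MBP did not pass (r = 0.12, adjusted p = 0.758, rho = 0.19, adjusted p = 0.680 by permutation, r = 0.15 without these libraries).

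PDGFRA went with GPR17, OLIG2, MYT1 and UGT8, and against QDPR, C1QL1 and MAL, these 7 passing by both measures. Such relations were common in the whole table. An r with PDGFRA of at least 0.7 was reached by 5 of 29 members (17.2%), against 24.5% of all genes, and one of -0.7 or below by 6 (20.7%), against 22.4% of all genes, so the members' shares lay near or under those of all genes. Of the 18 mature genes other than MBP 14 had a negative r with PDGFRA, with a median of -0.56. No such count was made for all genes, so it does not set the mature genes apart. The relation was r = 0.93 for GPR17 (adjusted p = 0.00244, rho = 0.87, adjusted p = 0.0126 by permutation), and without luteal 3 and follicular 5, the libraries farthest from the median of PDGFRA, it was r = 0.91. For UGT8 it was r = 0.94 (adjusted p = 0.00087, rho = 0.98, adjusted p = 0.00261 by permutation, r = 0.89 without these libraries), although UGT8 is a gene of myelin synthesis. For OLIG2 it was r = 0.79 (adjusted p = 0.0148, rho = 0.81, adjusted p = 0.0245 by permutation, r = 0.71 without these libraries). Among the negative relations QDPR had r = -0.88 (adjusted p = 0.00568, rho = -0.83, adjusted p = 0.0204 by permutation, r = -0.87 without these libraries). C1QL1 had r = -0.85 (adjusted p = 0.00753, rho = -0.89, adjusted p = 0.00925 by permutation, r = -0.89 without them) and MAL r = -0.79 (adjusted p = 0.0208, rho = -0.85, adjusted p = 0.0143 by permutation, r = -0.81 without them). MBP and PDGFRA themselves were not related past the threshold (r = -0.39, adjusted p = 0.371, rho = -0.28, adjusted p = 0.540 by permutation, r = -0.22 without luteal 5 and follicular 2). The 8 markers of mural cells and fibroblasts, of which fibroblasts can also carry PDGFRA, were high in the same follicular library. They summed to 774 CPM in follicular 5 and to 601 to 670 CPM in follicular 1 to 4, and their mean centred log2 CPM was highest in follicular 5 (0.32), luteal 5 (0.28) and luteal 3 (0.20) and lowest in follicular 3 (-0.33). Their part in the PDGFRA values was not tested. With 5 libraries a phase holds too few for a correlation of its own. With each phase centred on its mean, r was 0.98 for FA2H and 0.94 for OLIG1 with MBP, and 0.92 for GPR17 and 0.94 for UGT8 with PDGFRA.

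**Figure D5:**
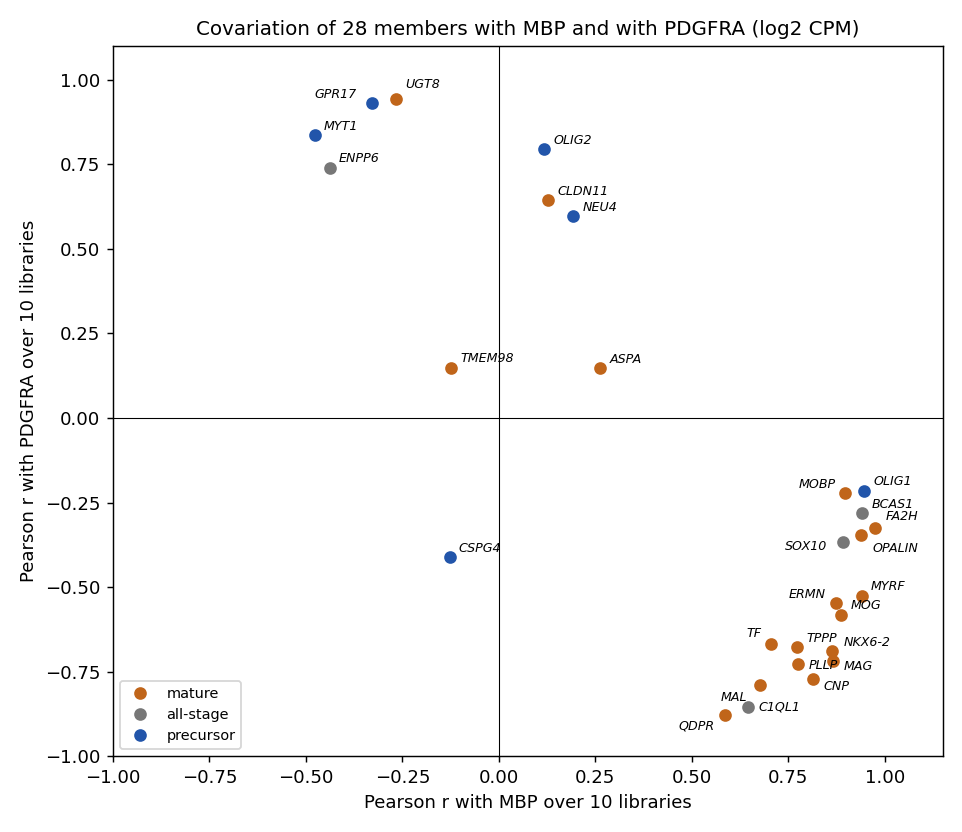
Pearson r over 10 libraries of 28 members with MBP (x axis) and with PDGFRA (y axis), with mature genes in orange, newly differentiating or all-stage genes in grey and precursor genes in blue. Most mature genes and OLIG1 lie at the lower right, and GPR17, OLIG2, MYT1, NEU4, ENPP6, UGT8 and CLDN11 lie at the top.

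The PDGFRA pattern also ran along the first principal component of all tested genes, which held 51.0% of the variance. PDGFRA correlated with it at r = 0.92 (adjusted p = 0.00152, rho = 0.92, adjusted p = 0.00503 by permutation, r = 0.92 without luteal 5 and follicular 3, the libraries farthest from its median). For MBP the value was r = -0.42 (adjusted p = 0.319, rho = -0.38, adjusted p = 0.387 by permutation, r = -0.42 without these libraries). QDPR had r = -0.94 (adjusted p = 0.00087, rho = -0.96, adjusted p = 0.00283 by permutation, r = -0.94 without these libraries). In total 11 members passed by both measures, among them MAG, CNP, MAL and PLLP with negative values. An r of at least 0.7 was reached by 6 of 30 members (20.0%), against 27.0% of all genes, and one of -0.7 or below by 9 of 30, against 24.8%, so these shares too are near those of all genes. On this component follicular 5, the deepest library, stood at 48.1, near luteal 3 at 47.7 and luteal 5 at 58.2. Follicular 1 and 3, the shallowest libraries, stood at -53.2 and -61.6, and luteal 4, the deepest luteal library, at -5.47. The 20 listed ribosomal protein genes summed to 14898.5 to 24373 CPM in luteal libraries, and in follicular 1 to 5 to 32024, 20173, 32455, 28464 and 14927 CPM. The part of sequencing depth, RNA quality, dissection or library preparation in the members' values was not tested. The component was itself partly tied to phase. Follicular 1, 3 and 4 stood below all luteal libraries on it, the lowest of which was luteal 1 at -14.4, while follicular 5 stood near the highest. With the component as a covariate the median log2 fold change was -0.01 for mature and -0.13 for precursor genes. Such a fit also removes phase difference that the component carries, so it cannot separate phase from other sources.

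Markers of the other cells in the block were read beside these values. The 8 astrocyte markers summed to 6104 CPM in luteal 1 and 3989 CPM in luteal 5, which were also the highest and lowest luteal libraries for the summed mature oligodendrocyte genes, and to 5011 to 6430 CPM in follicular libraries. With each marker given equal weight, as the mean centred log2 CPM, luteal 1 was again the highest (0.30) but luteal 4 (-0.31) lay below luteal 5 (-0.19). Neuronal markers summed to 953 to 1318 CPM in luteal and 1099 to 1296 CPM in follicular libraries. Microglial markers summed to 443 to 574 CPM in luteal and 433 to 760.0 CPM in follicular libraries, and endothelial markers to 159 to 208 and 146 to 218 CPM in luteal and follicular libraries. All 8 astrocyte, 9 neuronal, 8 microglial and 5 endothelial markers were found and none was at 0 in all libraries. No such marker passed edgeR (smallest adjusted p = 0.426, with 1 neuronal and 1 endothelial marker at an unadjusted p under 0.05). Their part in the members' values was not tested.

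Of 40 further genes of mature oligodendrocytes, 0 passed edgeR over all genes, and 17 averaged higher and 23 lower in luteal libraries, with a median log2 fold change of -0.05. CRYAB, a small heat shock protein abundant in oligodendrocytes, averaged 104 ± 27.9 CPM in luteal and 180.1 ± 41.8 CPM in follicular libraries (5 libraries each, ± SD), a log2 fold change of -0.79 (SE 0.20, edgeR adjusted p = 0.426). APOD, a lipid carrier of the sheath, averaged 1081 ± 172 CPM in luteal and 1333 ± 140.5 CPM in follicular libraries, and ELOVL1, which lengthens saturated fatty acids, 46.2 ± 3.37 and 54.0 ± 5.40 CPM. Higher in luteal libraries were ST18, a zinc finger factor related to MYT1, at 57.1 ± 12.6 against 39.4 ± 9.09 CPM, CA2, a carbonic anhydrase, at 67.6 ± 14.3 against 53.3 ± 9.59 CPM, and GPR37, a receptor of differentiating cells, at 8.94 ± 2.13 against 6.21 ± 2.39 CPM in follicular libraries.

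Of 26 further precursor genes 25 were tested and 0 passed edgeR over all genes, with 18 higher and 7 lower in luteal libraries and a median of 0.06. PCDH15 and LHFPL3, precursor markers of the human and mouse brain, averaged higher in luteal libraries (log2 fold changes 0.53 and 0.51). EMID1, at 21.2 ± 7.60 CPM in luteal and 32.2 ± 6.18 CPM in follicular libraries, averaged lower (log2 fold change -0.60, SE 0.23), as did SMOC1 and MMP15 (-0.32 and -0.23).

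Among 18 growth factors and signals of the lineage, 17 were tested and 0 passed edgeR, with 10 higher and 7 lower in luteal libraries. PDGFC, which activates PDGFRA, averaged 20.5 ± 2.05 CPM in luteal and 15.9 ± 2.02 CPM in follicular libraries (log2 fold change 0.36, SE 0.12, edgeR adjusted p = 0.426), and PDGFA, the main ligand of PDGFRA on precursors, 81.4 ± 16.1 and 93.7 ± 16.1 CPM (log2 fold change -0.20, SE 0.15, edgeR adjusted p = 0.502). JAG1 and NOTCH1, a ligand and a receptor of the pathway that holds precursors undifferentiated, averaged higher in luteal libraries (log2 fold changes 0.44 and 0.27). GPR37L1 and TNFRSF21 averaged lower (-0.29 and -0.11). Of 22 genes of sterol and fatty acid synthesis 0 passed, with 13 higher and 9 lower. FDPS, which makes farnesyl pyrophosphate, averaged 86.1 ± 23.6 CPM in luteal and 141 ± 49.98 CPM in follicular libraries (log2 fold change -0.71, SE 0.27, edgeR adjusted p = 0.426), with NSDHL and ACACA at -0.17 and -0.07. SREBF1, a regulator of fatty acid synthesis, SPTLC1, of sphingolipid synthesis, and DHCR7, of the last step to cholesterol, averaged higher (0.31, 0.50 and 0.19).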

How the data were processed

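RNA sequencing gave read counts per gene in 10 libraries, 5 luteal and 5 follicular. TriReagent extraction and a TruSeq stranded mRNA kit were used, per the labels' protocols. Reads were handled with TopHat2 2.1.1 and featureCounts 2.0.0 among other tools, per the submitters' processing notes (also bcl2fastq 2.20, FastQC, SAMtools 1.9 and Bowtie2 2.3.5.1), in no stated order. How reads shared between genes were treated, the genome build and the strand option are not given in the sources used here. Without a known strand setting, values of genes that overlap others are uncertain.

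The authors deposited raw counts in 1 table. RefSeq's gene table for ARS-UI_Ramb_v3.0 held 94.4% of its 33775 identifiers and was used for names alone. The members and gene lists were chosen with earlier results of these data known.

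Counts were fitted in R 4.3.3 with edgeR 4.0.16 (quasi-likelihood F-test, phase as the single term, filterByExpr with minimum count 10 and total 15, TMM scaling). Fold changes are luteal over follicular, with Benjamini-Hochberg adjustment over all 18276 genes and a threshold of 0.05. Log2 CPM used a prior count of 2. The biological coefficient of variation was 25.1%. Read ratios used counts plus 0.5, and correlations 100000 permutations. No pair of libraries agreed within sampling noise (45 pairs, chi-square per degree of freedom at least 12.8). Alternatives were other scalings and filters, DESeq2 1.42.0, limma 3.58.1 (voom with and without quality weights), the replicate number, the first principal component and left-out libraries. All 30 members were named. Values in every library are given for MBP, MOG, MAG, PDGFRA, CSPG4, GPR17, OLIG1, OLIG2 and the 4 members with the smallest p in each direction, and for UGT8, chosen after its values were seen. Of each further list up to 3 genes in each direction were named, and 1 gene is not reported here.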

Additional observations from a re-analysis of the deposited data

Results flagged for a closer look

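In each phase the end library's distance from its neighbour, as a share of the whole range, was set against Dixon's critical value for 5 samples (0.71). It was passed in 6 of 70 sets of libraries, where 3.5 (about 1 in 20) would pass by chance. The sets share libraries, many of the genes vary together and the ratios reuse PDGFRA, so the 6 are not separate observations. Follicular 5 accounted for 5 of them. Its PDGFRA level was 44.3 CPM against 19.7 to 24.6 CPM in the other follicular libraries (gap ratio 0.802) and its GPR17 level 8.71 against 2.97 to 4.01 CPM (0.819). Its CNP level was 95.6 against 168 to 187 CPM (0.799). Its log2 ratio of MOG over PDGFRA was -0.01 against 1.45 to 1.73 (0.838), and that of MAG over PDGFRA -0.60 against 1.36 to 1.56 (0.91). The other was BCAS1 in follicular 2, at 33.7 against 19.3 to 23.1 CPM (0.737).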

How the results depend on the processing

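Under RLE or upper-quartile scaling, other filters, limma-voom, DESeq2 and the replicate number as a block, 0 members were called. Over all genes DESeq2 called 35, voom with quality weights 5867 (10 members), and an adjusted p of 0.10 without follicular 5, chosen after seeing the data, 4527 (8 members). With one library left out, 0 to 1 genes and 0 members were called, the 1 gene without luteal 4. The mature median ranged from -0.34 (without luteal 1) to -0.08 (without luteal 5), and the precursor median from 0.05 (without follicular 3) to 0.38 (without follicular 5). The precursor median was -0.12 without follicular 1 and 3 together and -0.13 with a term for the first principal component, and the cause was not tested. That component is partly tied to phase, so its term can also remove a phase difference. The ratio differences ranged from -0.84 to -0.28 for MBP, -1.004 to -0.46 for MOG and -1.22 to -0.53 for MAG over PDGFRA, and those of MOG and MAG passed without follicular 5. In the replicate block the mature median was -0.22 and the precursor median 0.26, and the differences of the ratios are by construction the same, -0.55, -0.68 and -0.81 (exact sign-flip p = 0.125, 0.0625 and 0.0625, of which 0.0625 is the smallest possible). Same-numbered libraries correlated at -0.33 to 0.63 in their deviations, and 1 of 5 luteal libraries (luteal 5) correlated best with its own number. These few values cannot decide whether the numbers pair the libraries.

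The sign of a member's log2 fold change turned in 22 of 300 values under other settings and in 17 of 300 with one library left out, none of them called. With the component, itself partly tied to phase, the log2 fold change was 0.0010 for CNP, -0.33 for UGT8 and 0.059 for FA2H. In that fit it was 0.087 for QDPR, 0.036 for TPPP, 0.010 for MYRF, 0.11 for NKX6-2, 0.014 for BCAS1 and -0.031 for ENPP6. For PDGFRA, GPR17 and OLIG2 it was -0.13, -0.17 and -0.044. Without follicular 1 and 3 it was -0.11 for OPALIN, -0.056 for UGT8, -0.031 for GPR17 and -0.12 for OLIG2. It was 0.0074 for ASPA under upper-quartile scaling, -0.037 for SOX10 and 0.020 for NEU4 with the replicate block, -0.020 for SOX10 by limma-voom, and 0.038 for BCAS1 and 0.26 for NEU4 with quality weights. With one library left out the ranges that crossed 0 were -0.13 to 0.16 for OPALIN, -0.28 to 0.060 for FA2H, -0.089 to 0.086 for ASPA, -0.17 to 0.22 for SOX10, -0.33 to 0.087 for BCAS1, -0.27 to 0.0016 for OLIG1 and -0.24 to 0.22 for NEU4. OLIG2 and UGT8 had as few as 19 and 21 reads in a library, which limits their precision.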
